A study of Mus musculus with 16 samples.

Results

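The 10 genes described here are core and output genes of the circadian clock, taken from 54532 genes in the count table by their symbols: Arntl, Per1, Per2, Per3, Cry1, Cry2, Nr1d1, Nr1d2, Dbp and Tef. They were chosen by pathway and by a measured value, the strong rise of Per2 with anti-CD3/CD28 beads in these same samples, so every bead response below is given as a description without a test. The RNA-seq experiment asked what prostaglandin E2 (PGE2), a lipid mediator sensed through cAMP-coupled EP2 and EP4 receptors, does to transcripts of repetitively activated TCF1+CD8+ T cells. Naive CD8+ T cells from spleens of C57BL/6J mice were cultured for 4 days with repeated activation, which yields stem-like TCF1+CD8+ T cells. Cells were then kept for 1 h without or with 100 ng/ml PGE2 and for a further 4 h in IL-2 at 85 U/ml, either alone (unstimulated) or with anti-CD3/CD28 beads at 1 bead per cell (stimulated). The 4 groups of 4 samples were unstimulated untreated, unstimulated PGE2, stimulated untreated and stimulated PGE2 cells, and all 4 received IL-2. This is an in vitro bulk culture sampled once, and the labels give no time of day, so the values are levels at 1 time and not rhythms.

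The clock is a transcriptional feedback loop. BMAL1, the product of Arntl, pairs with CLOCK on E-box sequences and switches on the Per and Cry genes, whose proteins enter the nucleus and block BMAL1 and CLOCK. The REV-ERB receptors encoded by Nr1d1 and Nr1d2 repress Arntl in a second loop, and the PAR bZIP factors encoded by Dbp and Tef carry the rhythm to output genes through D-box sequences. Per1 and Per2 also respond to cAMP through CREB, a route by which light and some hormones reset the clock. Clock genes oscillate in lymphocytes, where they shape trafficking.

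Total counts were 22678254 to 42950763 per sample. Replicates of a group differed by more than sampling noise (chi-square per degree of freedom 8.46 to 56.8), so none was a library deposited a second time. The labels do not say that replicates came from separate animals, so p-values measure only the spread between these samples, which may be technical. The CD8 T cell markers Cd3e, Cd8a, Cd8b1 and Tcf7 summed to 1889 to 3620 CPM, the read count scaled to a common library size. The B cell list (5 markers) summed to 4.47 to 21.0 CPM, the myeloid list (5 markers) to 3.04 to 6.57 CPM, the CD4 T cell list (3 markers) to at most 10.25 CPM and the erythroid list (4 markers) to at most 0.821 CPM. Of the 3 NK cell markers Ncr1 was at 0 in all 16 samples and Klrb1c was at most 0.0999 CPM. Eomes, which activated CD8+ T cells also express, was at 5.55 to 24.1 CPM without beads and 36.4 to 178 CPM with them.

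The promoter windows of Per1, Cry1 and Nr1d1 are shown because Per1 and Nr1d1 moved in opposite directions with PGE2 while Cry1 did not pass the test. Of the 10 genes, 9 matched a RefSeq start in GRCm38.p6 by symbol, with 12 windows of 300 bases, and Per2 had no entry. Printed 5′ to 3′ are the 250 bases before each start, with the letters of the searched motifs in capitals:
Per1, upstream start, chr11:69098699-69098948, plus strand: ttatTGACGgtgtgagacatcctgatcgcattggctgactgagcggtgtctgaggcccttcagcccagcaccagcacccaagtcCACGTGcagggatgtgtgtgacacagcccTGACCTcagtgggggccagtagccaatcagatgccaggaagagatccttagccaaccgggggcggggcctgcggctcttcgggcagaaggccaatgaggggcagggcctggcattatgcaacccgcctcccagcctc
Per1, downstream start, chr11:69099902-69100151, plus strand: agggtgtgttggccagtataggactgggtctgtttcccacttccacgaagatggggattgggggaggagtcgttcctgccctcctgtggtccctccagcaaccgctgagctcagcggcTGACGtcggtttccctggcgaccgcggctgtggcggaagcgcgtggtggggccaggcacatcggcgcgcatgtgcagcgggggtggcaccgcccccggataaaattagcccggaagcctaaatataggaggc
Cry1, chr10:85185055-85185304, minus strand: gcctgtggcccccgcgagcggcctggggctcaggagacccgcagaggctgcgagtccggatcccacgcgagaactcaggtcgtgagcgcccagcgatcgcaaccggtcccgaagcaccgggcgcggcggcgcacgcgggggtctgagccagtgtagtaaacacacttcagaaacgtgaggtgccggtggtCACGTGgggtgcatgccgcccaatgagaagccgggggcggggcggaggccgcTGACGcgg
Nr1d1, chr11:98775378-98775627, minus strand: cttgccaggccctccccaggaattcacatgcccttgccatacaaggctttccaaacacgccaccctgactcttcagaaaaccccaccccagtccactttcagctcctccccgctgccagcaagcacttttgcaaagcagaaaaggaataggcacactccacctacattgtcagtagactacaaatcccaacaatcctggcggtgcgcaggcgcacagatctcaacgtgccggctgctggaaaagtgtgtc
The upstream Per1 window held 1 E-box (CACGTG) 166 bases before the start, 1 CRE half-site (TGACG, or CGTCA on the other strand) 246 bases before it and 1 nuclear receptor half-site (AGGTCA or TGACCT) 137 bases before it. The downstream Per1 window held 1 CRE half-site 132 bases before its start, and in the annotation both Per1 windows lay inside the gene, with 249 and 250 of 250 bases in introns. Cry1 had an E-box 60 bases and a CRE half-site 8 bases before its start, and 10 of its 250 bases fell in a Cry1 exon. None of the searched letters was in the Nr1d1 window, which lay outside the gene. Over the 300-base windows, an E-box was found for 3 of the 9 genes (Per1, Cry1 and Tef), a CRE half-site for 3 (Per1, Cry1 and Cry2), a nuclear receptor half-site for 3 (Per1, Arntl and Nr1d2) and a D-box (TTATGTAA, TTACGTAA or TTACATAA) for 1 (Per3). Counted by window, 4 of the 12 held an E-box, 4 a CRE half-site, 3 a nuclear receptor half-site and 1 a D-box. Of all 32851 windows listed, 7.15% held an E-box, 20.8% a CRE half-site, 16.3% a nuclear receptor half-site and 1.06% a D-box. The full CRE (TGACGTCA), which contains the half-site on both strands, was in 1.79% of all windows and in none of the 12. Such matches describe letters in a window, not bound sites.

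All 10 genes were detected in all 16 samples. On the authors' FPKM scale, which divides by gene length and so allows genes to be ranked, Per1 and Cry1 stood highest in unstimulated untreated cells at 15.9 ± 0.770 and 13.2 ± 1.72 FPKM (SD, n = 4). The cryptochrome Cry2, the REV-ERB receptor Nr1d2, Dbp, Tef and Arntl lay between 1.69 and 3.56 FPKM, and Per2 was at 1.01 ± 0.189 FPKM. Nr1d1 (0.464 ± 0.127 FPKM) and Per3 (0.362 ± 0.0583 FPKM) were lowest. With beads Per2 followed, at 7.42 ± 1.28 FPKM, after Per1 (21.2 ± 1.07 FPKM) and Cry1 (17.5 ± 2.57 FPKM). All values from here on are CPM after TMM scaling of the counts over the 16 samples, and compare 1 gene between groups. In bulk RNA, fewer cells expressing a gene and less RNA per cell cannot be told apart.

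**Figure D1:**
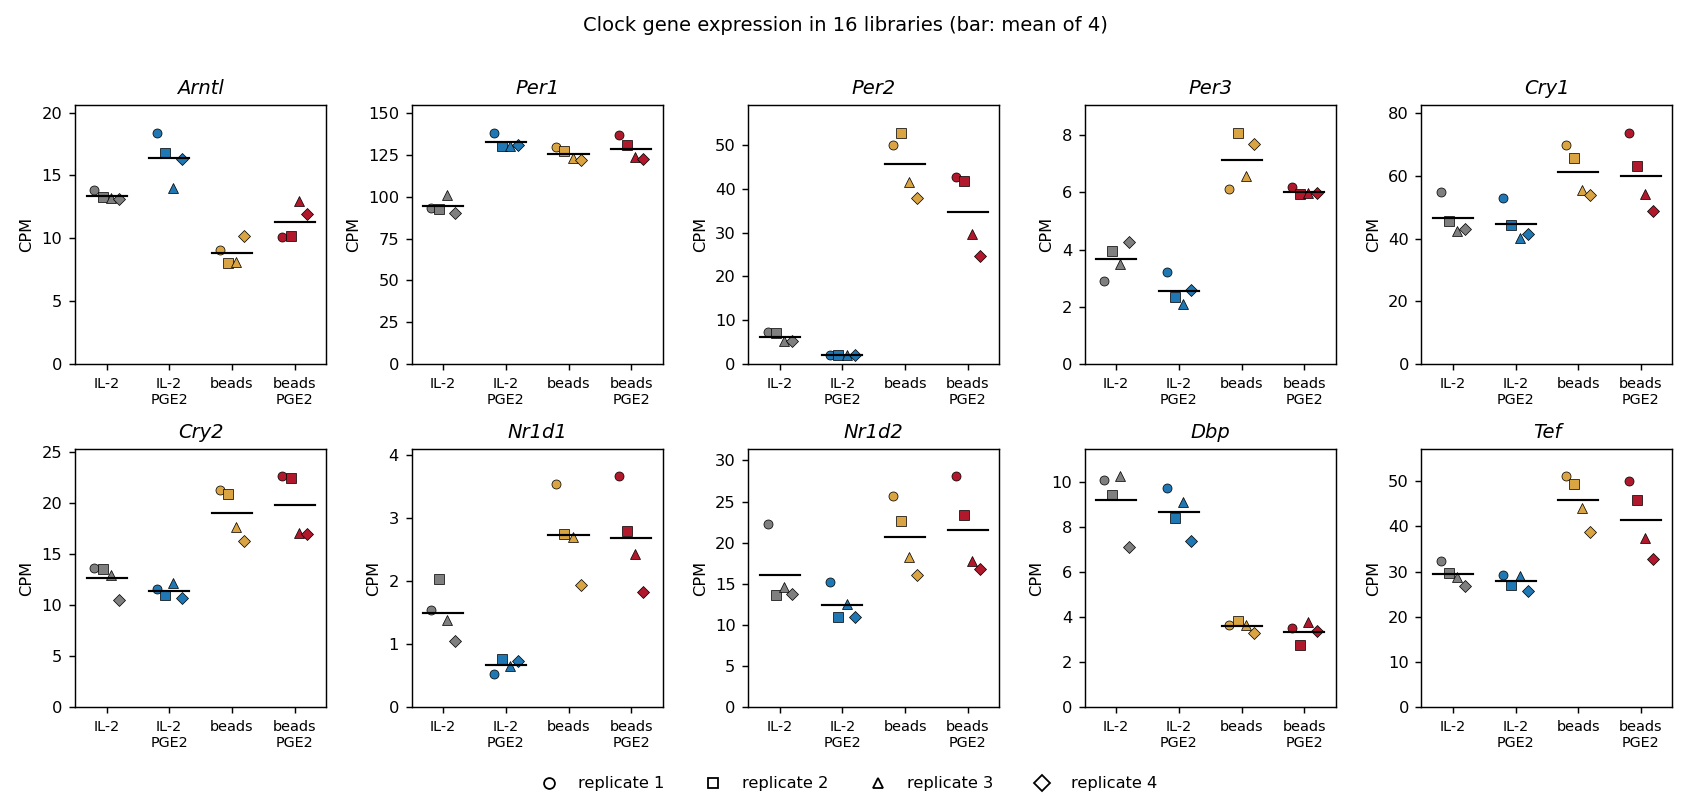
CPM of the 10 clock genes in each of the 16 samples (points, shape by replicate number; bar, mean of 4) for unstimulated cells in IL-2 without or with PGE2 and for bead-stimulated cells without or with PGE2. Per1 was between 90.3 and 101 CPM in unstimulated untreated cells and at least 122 CPM in the other 3 groups, while Per2 was at most 7.28 CPM without beads and at least 24.8 CPM with them.

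In unstimulated cells PGE2 moved the period genes in opposite directions. Per1 rose, Per2 fell, the REV-ERB gene Nr1d1 fell and Arntl rose. Of the 10 genes 2 were higher and 2 lower at an adjusted p below 0.05 by edgeR's quasi-likelihood test (Benjamini-Hochberg over 14505 genes), against 12.9% of all genes tested that were higher and 15.5% that were lower. At an unadjusted p below 0.05 there were 5. No share of all genes at that threshold is available here, so this count and the later ones at it are not results about a list. Per2 and Nr1d1 also changed by at least 2-fold, which with the adjusted p is the study's criterion for a differentially expressed gene (DEG). DEGs made up 3.38% of all genes. The median log2 fold change of the 10 genes was −0.10, beside −0.001 for all genes.

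Per1 (ENSMUSG00000020893, chr11:69095217-69109960, plus strand), a repressor of the loop and a CREB target, was at 93.1, 92.8, 101 and 90.3 CPM in the 4 unstimulated untreated samples and at 138, 131, 130.3 and 131 CPM with PGE2. The highest untreated sample was below the lowest PGE2 sample, so the groups did not overlap. Per1 rose by 0.51 on the log2 scale (SE 0.0538, a 1.42-fold change; edgeR adjusted p = 5.32e-05). This call was kept when each of the 8 samples was left out and under all 9 other settings tried, and its promoter windows are those printed above.

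Per2 (ENSMUSG00000055866, chr1:91415982-91459324, minus strand), the second period repressor, was at 7.28, 7.13, 5.27 and 5.21 CPM untreated and at 2.11, 1.94, 1.96 and 2.16 CPM with PGE2. The PGE2 samples lay close together and under every untreated sample. The log2 fold change of Per2 was −1.58 (SE 0.155, 2.99-fold lower; edgeR adjusted p = 3.38e-05). These values rest on 165 to 214 reads per untreated sample and 60 to 85 reads per PGE2 sample. Its call also held without each sample in turn and under the 7 other settings that tested it.

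Per3 (ENSMUSG00000028957, chr4:151003652-151044665, minus strand), the least abundant period gene, was at 2.91 to 4.28 CPM untreated and 2.09 to 3.23 CPM with PGE2, and the groups overlapped. Its log2 fold change was −0.51 (SE 0.176, edgeR adjusted p = 0.0517), which missed the threshold. With the replicate number as a block it was −0.52 (adjusted p = 0.0135), and it also passed by DESeq2 (adjusted p = 0.0362).

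Cry1 (ENSMUSG00000020038, chr10:85131700-85185064, minus strand) and Cry2 (ENSMUSG00000068742, chr2:92403646-92434043, minus strand) encode the cryptochromes that act with the PER proteins. Cry1 was at 55.0, 45.7, 42.3 and 43.0 CPM untreated and at 52.9, 44.2, 40.2 and 41.6 CPM with PGE2. In both groups replicate 1 was highest and replicate 3 lowest, and the ranges overlapped almost wholly. The log2 fold changes were −0.04 (SE 0.0941) for Cry1 and −0.13 (SE 0.102) for Cry2, with edgeR adjusted p of 0.824 and 0.382.

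Nr1d1 (ENSMUSG00000020889, chr11:98767932-98775333, minus strand), the REV-ERB alpha receptor that represses Arntl, was at 1.54, 2.03, 1.38 and 1.05 CPM untreated and 0.527, 0.760, 0.661 and 0.738 CPM with PGE2. Every PGE2 sample was below every untreated one. The log2 fold change was −1.12 (SE 0.256, 2.17-fold lower; edgeR adjusted p = 0.00701), from 15 to 61 reads per sample. Without unstimulated untreated replicate 2 the log2 fold change was −0.92 and the DEG criterion was no longer met, although the adjusted p stayed at 0.0303. Nr1d1 shares 263 exon bases (8.55% of its own) with Thra, the thyroid hormone receptor alpha gene on the opposite strand, and the strand setting of the counting is not given in the sources used here. Thra was at 22.8 to 27.4 CPM untreated and 27.2 to 31.4 CPM with PGE2, a log2 fold change of 0.24 (edgeR adjusted p = 0.0463), and thus moved the other way. Its part in the Nr1d1 counts was not tested. Arntl, Cry2 and Tef share 33, 295 and 193 exon bases with Gm45355, D930015M05Rik and Gm17597 on the opposite strand. None of these opposite-strand genes was above 0.408 CPM in any sample, scaled here by total counts without TMM. Dbp shares 539 exon bases (18.0% of its own) with Sphk2, also on the opposite strand. The other 5 members share none.

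Nr1d2 (ENSMUSG00000021775, chr14:18204054-18239127, minus strand), the REV-ERB beta gene, was at 22.3, 13.6, 14.6 and 13.8 CPM untreated and 15.3, 10.95, 12.6 and 11.02 CPM with PGE2. Replicate 1 was the highest of both groups, and the groups overlapped. Its log2 fold change was −0.34 (SE 0.162, edgeR adjusted p = 0.141), and −0.33 (SE 0.0744, adjusted p = 0.00157) with the replicate number as a block.

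Arntl (ENSMUSG00000055116, chr7:113207465-113314126, plus strand), the activator, was at 13.8, 13.3, 13.2 and 13.1 CPM untreated and at 18.4, 16.8, 14.0 and 16.3 CPM with PGE2. The groups did not overlap, although PGE2 replicate 3 lay just above the highest untreated sample. Arntl rose by 0.31 on the log2 scale (SE 0.0845, a 1.24-fold change; edgeR adjusted p = 0.0166). The call was lost by limma on log2(FPKM + 1) (adjusted p = 0.0521) and log2(FPKM + 0.1) (adjusted p = 0.0525) and in 1 fit of all 16 samples (adjusted p = 0.0536).

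The output factors Dbp (ENSMUSG00000059824, chr7:45705088-45710203, plus strand) and Tef (ENSMUSG00000022389, chr15:81802421-81826863, plus strand) did not pass the test. Dbp was at 7.11 to 10.2 CPM untreated and 7.38 to 9.73 CPM with PGE2 (log2 fold change −0.07, SE 0.134). Tef was at 26.8 to 32.4 and 25.8 to 29.3 CPM (log2 fold change −0.06, SE 0.0733). In both genes the untreated and PGE2 ranges overlapped. Sphk2, which overlaps Dbp on the opposite strand, was at a mean of 45 CPM untreated and 53.2 CPM with PGE2. Its log2 fold change was 0.26 (edgeR adjusted p = 0.0242), and its part in the Dbp counts was not tested. A p that misses the threshold does not show that the levels were equal.

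The same-numbered samples of the unstimulated groups deviated together, and with the replicate number as a block 6 of the 10 genes passed, 2 higher and 4 lower. The added calls were Per3 and Nr1d2. In that fit 23.6% of all genes were higher and 24.2% lower, so its calls were more common in the table as a whole.

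**Figure D2:**
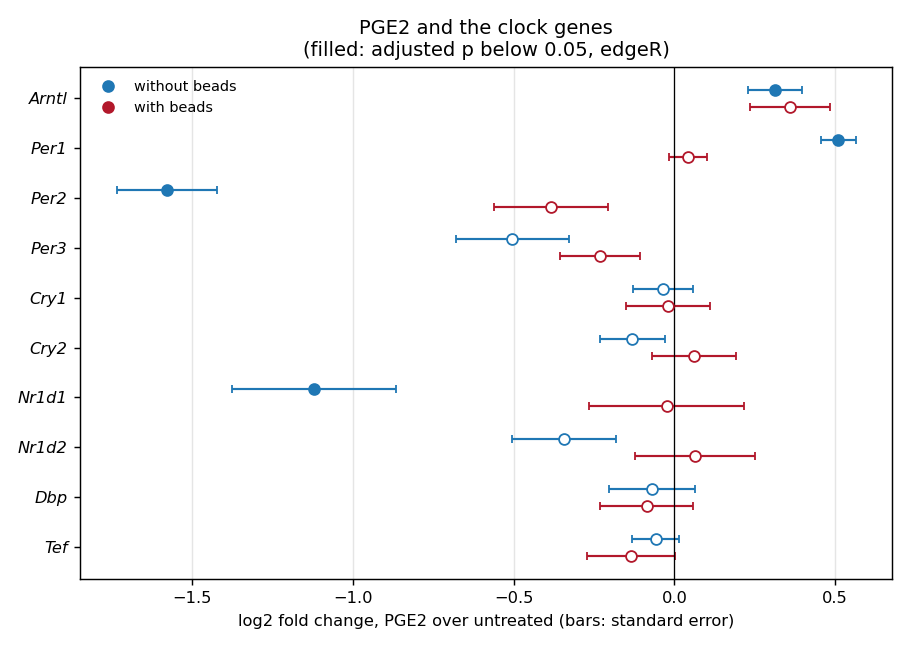
Log2 fold change of PGE2 over untreated for the 10 clock genes in unstimulated cells (blue) and bead-stimulated cells (red), with bars for the standard error and filled points for an edgeR adjusted p below 0.05. The filled points are Per1 (0.51), Arntl (0.31), Per2 (−1.58) and Nr1d1 (−1.12), all in unstimulated cells.

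In stimulated cells none of the 10 genes passed the adjusted p by edgeR's quasi-likelihood test over 13922 genes, and 1 (Arntl) had an unadjusted p below 0.05. Over all genes 6.04% were higher and 3.8% lower, and 1.75% were DEGs. DESeq2 also called 0 of the 10, and limma 0 of the 8 it tested, Per3 and Nr1d1 being under its minimum of 1 FPKM. The median log2 fold change of the 10 genes was −0.02, beside −0.01 for all genes.

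Per1 was at 129.8, 127, 123 and 122 CPM in stimulated untreated cells and at 137, 131, 124 and 123 CPM with PGE2. These ranges overlapped, and the log2 fold change was 0.04 (SE 0.0603, edgeR adjusted p = 0.676). The stimulated cells of both kinds thus sat near the level of unstimulated PGE2 cells. Nr1d1 was at 3.55, 2.75, 2.71 and 1.94 CPM untreated and 3.66, 2.80, 2.44 and 1.84 CPM with PGE2, again with overlap (log2 fold change −0.02, SE 0.242, edgeR adjusted p = 0.958).

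Per2 was at 50.1, 52.8, 41.6 and 37.9 CPM in stimulated untreated cells and at 42.6, 41.9, 29.8 and 24.8 CPM with PGE2. Each PGE2 sample was below the untreated sample of its own number, but the groups overlapped. Without the block the log2 fold change was −0.38 (SE 0.177, edgeR adjusted p = 0.193). With the replicate number as a block it was −0.40 (SE 0.0663, adjusted p = 9.5e-04).

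Arntl was at 9.05, 8.04, 8.08 and 10.2 CPM untreated and at 10.1, 10.2, 12.9 and 11.9 CPM with PGE2. It was higher with PGE2 in every same-numbered pair, and only untreated replicate 4 reached into the PGE2 range. Its log2 fold change was 0.36 (SE 0.124, edgeR adjusted p = 0.0972), and 0.36 (SE 0.0951, adjusted p = 0.0128) with the block. Under the block 2 of the 10 genes passed, Arntl higher and Per2 lower, where 19.1% of all genes were higher and 20.7% lower. The other 8 genes did not pass in either fit, and their log2 fold changes without the block ran from −0.23 (Per3) to 0.06 (Nr1d2).

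The difference between the PGE2 effects with and without beads was tested as an interaction over 16 samples and 15096 genes. Of the 10 genes 2 passed by edgeR's quasi-likelihood test, Per1 and Per2, against 0.749% of all genes in either direction. At an unadjusted p below 0.05 there were 3, without a share of all genes to set beside them. The interaction was −0.45 for Per1 (SE 0.0805, edgeR adjusted p = 0.0125), so its PGE2 effect was smaller with beads. For Per2 it was 1.204 (SE 0.250, edgeR adjusted p = 0.0315), so the PGE2 effect on Per2 was less negative with beads. Nr1d1 had a value of similar size, 1.11 (SE 0.354), which did not pass (edgeR adjusted p = 0.221). The other 7 genes had interactions from −0.06 (Tef) to 0.42 (Nr1d2), and the median over all genes was 0.05. Per1 kept its call without each of the 16 samples in turn. Per2 lost it in 10 of those 16 fits (log2 values from 1.09 to 1.23, adjusted p from 0.0533 to 0.0892), namely without unstimulated untreated replicates 1 or 2, unstimulated PGE2 replicates 1, 2 or 3, stimulated untreated replicates 1, 3 or 4, and stimulated PGE2 replicates 1 or 2, and also with RLE scaling (adjusted p = 0.0530). By limma it was 0.23 on the log2(FPKM + 1) scale (adjusted p = 0.904) and 0.92 on the log2(FPKM + 0.1) scale (adjusted p = 0.144). The interaction contains the bead contrast that chose Per2, so its test is not free of that choice.

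The bead response, part of how the genes were chosen, is described without tests. Per2 was the gene that differed by the most, 7.33-fold higher with beads than without in untreated cells and 17.2-fold higher in PGE2 cells. On the log2(FPKM + 1) scale, which understates changes of low genes, these differences were 2.06 and 2.29. In the absence of PGE2 the bead and no-bead groups did not overlap for 7 of the 10 genes, 5 higher with beads (Per1, Per2, Per3, Cry2 and Tef) and 2 lower (Arntl and Dbp). Of all genes 30.4% were higher and 31.2% lower without overlap. In PGE2 cells 6 genes were higher without overlap (Per2, Per3, Cry2, Nr1d1, Nr1d2 and Tef) and again 2 lower (Arntl and Dbp), where 30.1% of all genes were higher and 30.1% lower. Of a list of further clock genes, 11 of 19 were higher and 6 lower without overlap in untreated cells, and 8 and 6 of 19 in PGE2 cells. The 11 include Hlf, at 3 to 9 reads per sample without beads and 14 to 20 with them. The 6 lower in PGE2 cells include Bhlhe41, at 21 to 48 reads without beads and 4 to 18 with them. Each passed the filter on low counts through the group where it was high, so neither is support for a difference. These 2 bead comparisons have no sample in common, while each shares a group of samples with each PGE2 comparison.

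Within the negative limb, the log2 differences between beads and no beads without PGE2 were 2.87 for Per2, 0.93 for Per3, 0.58 for Cry2, 0.40 for Per1 and 0.39 for Cry1. In PGE2 cells they were 4.11 for Per2, 1.25 for Per3, 0.81 for Cry2, 0.45 for Cry1 and −0.03 for Per1, with Cry2 at 0.53 on the log2(FPKM + 1) scale. Per1 is thus the gene for which the bead difference was seen without PGE2 and was near 0 with it, where upper-quartile scaling gave −0.16 (the median of all genes moved to −0.125) and the value without stimulated PGE2 replicate 4 was 0.0077. With beads, Per3 was at 6.11 to 8.08 CPM untreated and 5.94 to 6.18 CPM with PGE2, above all 8 samples without beads.

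Among the other roles, the activator Arntl and the output gene Dbp were lower with beads. The log2 differences of Arntl were −0.61 without PGE2 and −0.52 with it. Dbp was at 3.65, 3.82, 3.63 and 3.29 CPM in stimulated untreated cells, below every unstimulated untreated sample, with log2 differences of −1.37 and −1.34 (−0.87 in both on the log2(FPKM + 1) scale, where Arntl without PGE2 had −0.35). Dbp shares 539 exon bases (18.0% of its own) with Sphk2 on the opposite strand, which encodes a sphingosine kinase and had log2 differences of −0.28 and −0.34. Tef, its PAR bZIP relative, had differences of 0.63 and 0.59 and so lay on the other side. The REV-ERB genes had 0.87 (Nr1d1) and 0.36 (Nr1d2) without PGE2, both with overlapping groups, and 2.00 and 0.81 with PGE2. For Thra, the gene opposite Nr1d1, the bead differences were −2.33 and −2.06.

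Marker levels also moved between these groups. Tcf7, the TCF1 gene, was at 913 to 1540 CPM without beads and 289 to 469 CPM with them, and the summed B cell list at 10.1 to 21.0 CPM without and 4.47 to 11.7 CPM with beads. Their part in the bead differences of the clock genes was not tested.

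**Figure D3:**
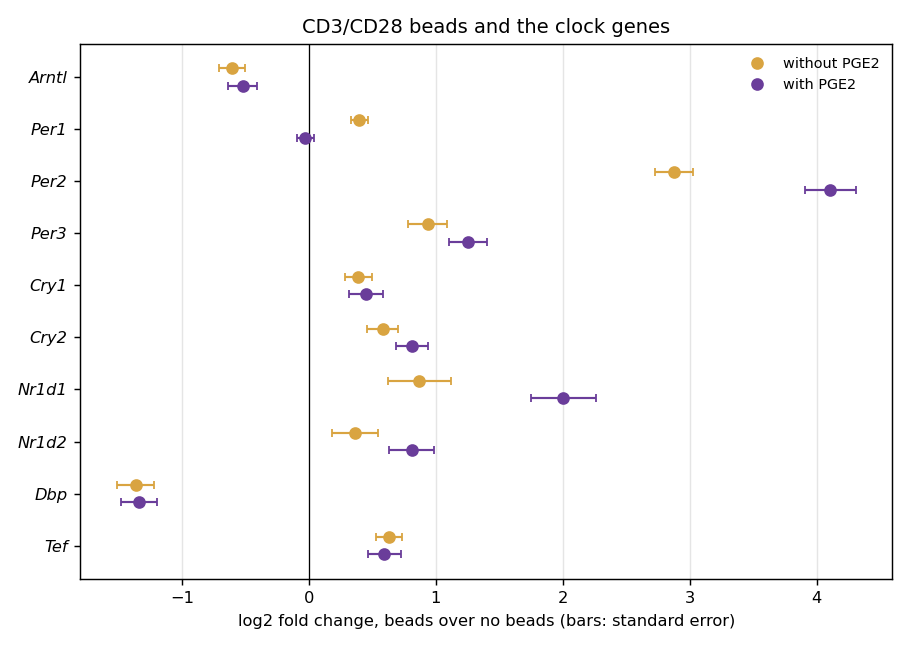
Log2 fold change of beads over no beads for the 10 clock genes without PGE2 (gold) and with PGE2 (purple), with bars for the standard error. Per2 stands apart at 2.87 and 4.11, Dbp is lowest at −1.37 and −1.34, and Per1 lies at 0.40 and −0.03.

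The order of the 4 groups differed by gene. For Per2 the order was stimulated untreated, stimulated PGE2, unstimulated untreated and unstimulated PGE2, and only the first 2 neighbours overlapped. For Arntl it was unstimulated PGE2, unstimulated untreated, stimulated PGE2 and stimulated untreated, with overlap only between the last 2. Per1 had 3 groups that overlapped in a row, and unstimulated untreated cells stood below them. Per3, Cry2 and Tef had both stimulated groups above both unstimulated groups, with overlap within each kind, and Dbp had the reverse. For Nr1d1 only unstimulated PGE2 cells stood apart, at the bottom. For Cry1 and Nr1d2 every group overlapped its neighbour in the order.

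Spread within groups followed the replicate number in several of these genes. Replicate 1 was above its group mean in all 4 groups for 6 of the 10 genes, Per2, Cry1, Cry2, Nr1d2, Dbp and Tef, and replicate 4 was below it in all 4 for 5 genes, Per1, Cry1, Cry2, Nr1d2 and Tef. Over 15096 genes, 21.0% were above in all 4 groups for replicate 1 and 13.5% below for replicate 4. The deviation of Nr1d2 in replicate 1 ran from 0.31 to 0.50 on the log2 scale, and that of Cry1 from 0.20 to 0.31. What the same-numbered samples share is not stated in the labels.

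**Figure D4:**
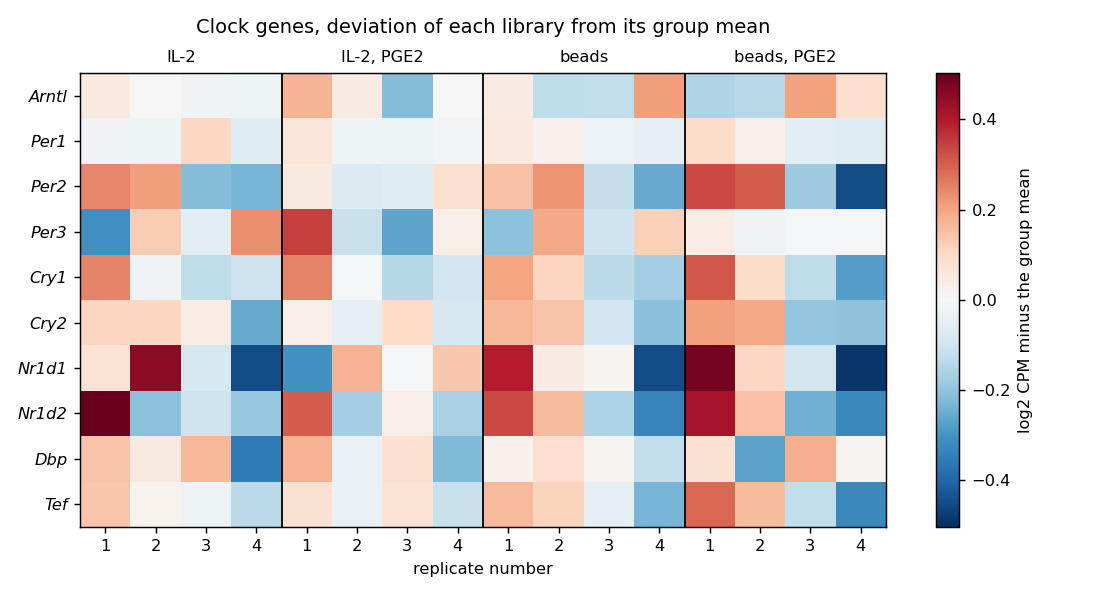
Log2 CPM of each sample minus its group mean for the 10 clock genes (rows) in 16 samples (columns, replicates 1 to 4 within each group), red above and blue below the mean. Nr1d2 in replicate 1 was 0.31 to 0.50 above the mean in all 4 groups, and replicate 4 was below the mean in all 4 groups for 5 genes.

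Of 23 further clock genes taken from a general list, 20 passed the filter on low counts in unstimulated cells, and 6 passed the adjusted p with PGE2, 5 higher and 1 lower, beside 12.9% and 15.5% of all genes. The median of the 20 was 0.15, beside −0.001 for all genes. The largest change among those that passed was that of Rora, which encodes the receptor that activates Arntl where the REV-ERB receptors repress it. Rora was at 22.8 to 28.6 CPM untreated and 37.6 to 42.8 CPM with PGE2, without overlap, a rise of 0.69 on the log2 scale (SE 0.0806, edgeR adjusted p = 1.02e-04). Csnk1e and Csnk1d, kinases that phosphorylate PER proteins, rose by 0.46 and 0.22 on the log2 scale (edgeR adjusted p = 0.00123 and 0.0183). Btrc, a ubiquitin ligase subunit that targets PER proteins, rose by 0.44 (edgeR adjusted p = 6.71e-04), and Cipc, an inhibitor of CLOCK, by 0.28 (edgeR adjusted p = 0.0384). Wee1, a clock-controlled cell cycle kinase, had a log2 fold change of −0.32 (edgeR adjusted p = 0.0166). Cipc lost its call in 6 of 8 fits without 1 sample (adjusted p up to 0.0998; untreated replicates 2, 3 or 4, PGE2 replicates 1, 2 or 3). Wee1 lost it without replicate 2 of either group (adjusted p up to 0.0753) and Csnk1d without untreated replicate 4 (adjusted p = 0.0502), while Rora, Csnk1e and Btrc kept it in all 8. Under the 9 other settings Cipc also lost its call by limma on either scale, and Csnk1d in 1 fit of all 16 samples. Rora, Csnk1e, Btrc and Wee1 kept theirs in all 9. With the replicate block 13 of the 20 passed, 11 higher and 2 lower, beside 23.6% and 24.2% of all genes. The 11 include Bhlhe41, at 1 to 23 reads per sample untreated and 21 to 48 with PGE2. It passed the filter on low counts through the PGE2 group, where it was high, so its call is no support for a difference. Clock, the partner of Arntl, was among the 14 that did not pass without the block (log2 fold change −0.01).

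In stimulated cells 1 of 19 tested passed, the rare transcript Hlf, where 6.04% of all genes were higher and 3.8% lower. Hlf, the third PAR bZIP factor beside Dbp and Tef, was at 0.450 to 0.735 CPM untreated and 0.0336 to 0.335 CPM with PGE2, from 14 to 20 and 1 to 8 reads per sample. It passed the filter on low counts only through the untreated group, where it was high, and it was not tested in unstimulated cells (2 to 9 reads), so its call is no support for a difference. It also lost that call in 5 of 8 fits without 1 sample (untreated replicates 2, 3 or 4, PGE2 replicates 3 or 4; adjusted p up to 0.0997). At an unadjusted p below 0.05 there were 6, without a share of all genes to set beside them. The median of the 19 was 0.01, beside −0.01 for all genes. With the replicate block 8 passed, 3 higher and 5 lower, where 19.1% of all genes were higher and 20.7% lower. The 5 lower include Hlf, whose call is no support for a difference in that fit either. Under the interaction 1 of 21 passed, Csnk1e at −0.65 (SE 0.103, edgeR adjusted p = 0.00614), which was at 12.3 ± 0.650, 16.8 ± 0.936, 25.8 ± 0.857 and 22.4 ± 1.38 CPM (SD, n = 4) in unstimulated untreated, unstimulated PGE2, stimulated untreated and stimulated PGE2 cells. Csnk1e kept this call without each of the 16 samples in turn.

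**Figure D5:**
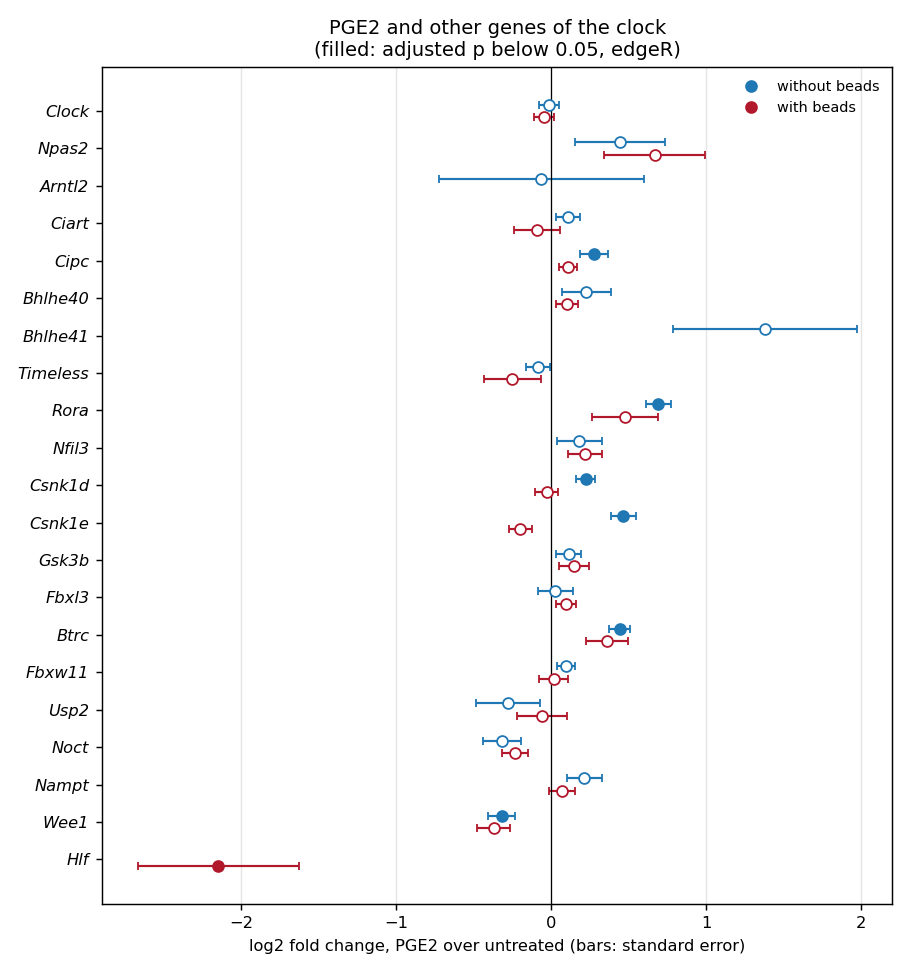
Log2 fold change of PGE2 over untreated for the further clock genes that passed the filter, in unstimulated (blue) and bead-stimulated (red) cells, with bars for the standard error and filled points for an edgeR adjusted p below 0.05. Rora (0.69) is the highest filled point, Hlf (−2.15), which was near the minimum count, the lowest, and Csnk1e lies at 0.46 without beads and −0.20 with them.

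A general list of 16 CREB-responsive genes gives the setting for Per1 and Per2. It includes Crem, which the study itself named from these samples, so its direction is not independent evidence. In unstimulated cells 7 were higher and 1 lower with PGE2 at the adjusted p, beside 12.9% and 15.5% of all genes, and the median log2 fold change of the 16 was 0.40. Among those that passed, the largest were Crem (1.67), an inducible cAMP-responsive repressor, Egr1 (−0.99), an immediate early factor, Sik1 (0.85), a kinase that restrains CREB coactivators, and the phosphodiesterase gene Pde4d (0.52), with edgeR adjusted p from 1.81e-05 to 0.00103. Per1 (0.51) lay close to Pde4d, while Per2 (−1.58) lay below every gene of the list. In stimulated cells 4 were higher and 1 lower at the adjusted p, beside 6.04% and 3.8% of all genes, and the median of the 16 was −0.10. With the replicate block 14 of the 16 passed in unstimulated cells (13 higher, 1 lower), beside 23.6% and 24.2% of all genes, and 10 in stimulated cells (4 higher, 6 lower), beside 19.1% and 20.7%. Under the interaction 1 passed, with a negative value, beside 0.749% of all genes in either direction. At an unadjusted p below 0.05 there were 11, without a share of all genes to set beside them.

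The genes most like Per1 in their pattern, by Pearson's r of log2 CPM over the 16 samples among 12252 other genes, were Sh2d2a (0.950), Kdm2b (0.928), Stat5b (0.924), Tnfrsf1b (0.909) and Zhx2 (0.903). Like Per1, all 5 had their lowest mean in unstimulated untreated cells. The genes most like Per2 were Tbrg4, Pus7, Gemin5, Nop2 and Ppan, with r of 0.997 to 0.998, and all 5 shared its order of the 4 group means. The 16 points fall into the 4 groups and share libraries, so these values describe likeness and carry no test. The genes were picked by r over these samples, so a shared order of group means follows largely from that choice. For Per2 the r includes the bead rise on which it was chosen.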

How the data were processed

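RNA was measured by poly(A) RNA-seq in 16 samples (4 groups of 4). The authors aligned reads to GRCm38/mm10 with HISAT2 2.0.5 and counted them per gene with featureCounts 1.5.0-p3. They deposited raw counts per gene, and FPKM values made from count and gene length. The strand setting is not given in the sources used here. Depth (22678254 to 42950763 counts per sample) limits the precision of low genes.

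Groups came from the labels. Each PGE2 comparison was fitted on its 8 samples, and the interaction on all 16, with edgeR 4.0.16 (quasi-likelihood test, two-sided, TMM, filterByExpr with a minimum count of 10) under R 4.3.3, over all genes. Genes passed at an adjusted p below 0.05 (Benjamini-Hochberg), and DEGs also at a 2-fold change. Each standard error (SE) is the absolute log2 fold change divided by the square root of the F statistic, since the test itself gives none. CPM in the text use TMM over 16 samples, and log2 CPM a prior count of 2. Alternatives were DESeq2 1.42.0, RLE and upper-quartile factors, other filters, limma 3.58.1 on log-transformed FPKM (pseudocount 1 or 0.1, mean FPKM no lower than 1), a replicate block, a common fit of the 16 samples, and the omission of single samples. The edgeR, DESeq2 and limma code was tested on simulated counts. Effect sizes were checked there for edgeR and DESeq2, and for limma only the sign of the change. The simulated counts held no effect shared by same-numbered samples, so they do not test the replicate block on such an effect.

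The replicate numbers pair the samples of both PGE2 comparisons by the deviations of same-numbered samples from their group means: all 4 pairs correlated above 0.1 in unstimulated (r 0.137 to 0.444) and in stimulated cells (r 0.190 to 0.423). The pairing comes from the data, since the labels give only the number. Over all 4 groups 3 of 24 pairs fell under 0.1, and 22 of the 24 correlated best with their own number. In the unstimulated PGE2 comparison all 4 pairs did, but in the stimulated one only 3 of 4. There replicate 2 correlated at 0.190 with its own number and at up to 0.212 with another.

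The members, the lists of further clock genes, CREB-responsive genes and markers, and the tests were chosen with earlier results of these data known. The text names all 10 members, each further clock gene past the adjusted p in a PGE2 comparison, the 4 CREB-responsive genes with the largest change among those past it, and the 5 genes most like Per1 and Per2 by r (mean CPM no lower than 1). Genes that overlap members in the annotation were named too. So were Clock, as the partner of Arntl, and Bhlhe41, for its low counts, both after their values were seen. Promoter windows came from RefSeq, and overlaps from GENCODE on the same build. 1 gene of the list of further clock genes is not reported here.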

Additional observations from a re-analysis of the deposited data

Results flagged for a closer look

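Among 40 groups of 4 values (10 genes in 4 groups), 3 had a sample that stood apart from the other 3 by Dixon's test, where chance gives about 1 in 20. Each was a replicate 1 and the highest of its group. Per1 was at 138 CPM in unstimulated PGE2 replicate 1, against 130.3 to 131 CPM in the others. Per3 was at 6.18 CPM in stimulated PGE2 replicate 1, against 5.94 to 5.98 CPM. Nr1d2 was at 22.3 CPM in unstimulated untreated replicate 1, against 13.6 to 14.6 CPM.

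The PGE2 effect differed between stimulated and unstimulated cells by edgeR's interaction test for Per1 (−0.45 on the log2 scale, edgeR adjusted p = 0.0125), Per2 (1.204, edgeR adjusted p = 0.0315) and Csnk1e (−0.65, edgeR adjusted p = 0.00614). The interaction contains the bead contrast on which Per2 was chosen, and Per2 lost its call in 10 of 16 fits without 1 sample, with RLE factors and by limma.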

How the results depend on the processing

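In unstimulated cells the count of clock genes past the adjusted p (4) became 1 by limma on log2(FPKM + 1) and 1 on log2(FPKM + 0.1), and the count of DEGs (2) became 0 under both. Of the 4, Per2 and Nr1d1 fell under the mean of 1 FPKM and were not tested, and Arntl was tested and did not pass. Without 1 sample each the DEGs ran from 1 to 2, the 1 without unstimulated untreated replicate 2. In stimulated cells the count (0) became 2 with the replicate block and 1 (Arntl) in 1 fit of all 16 samples. The interaction count (2) became 1 with RLE factors and with limma on either scale, and ran from 1 to 2 without 1 sample each. With the replicate block it was 2 (Per1 −0.45, edgeR adjusted p = 0.0024, and Per2 1.17, edgeR adjusted p = 0.0014). In that fit 408 of 15096 genes passed, beside 113 without the block. The interaction contains the bead contrast on which Per2 was chosen, so the p for Per2 is no independent support. Of the 24 same-numbered pairs over the 4 groups, 21 correlated above 0.1. Beside Per3 and Nr1d2 (unstimulated) and Per2 and Arntl (stimulated) the block changed no call of the 10 genes.

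Signs turned only in values that passed no test or had none. The interaction of Cry1 was −0.0051 with no filter, −0.0011 with limma on log2(FPKM + 1) and −0.000932 on log2(FPKM + 0.1), that of Arntl −0.0079 with limma on log2(FPKM + 1), and that of Dbp 0.00086 with at least 10 counts in every sample. Without 1 sample each, interactions ran from −0.0287 to 0.126 (Arntl), −0.0862 to 0.105 (Cry1), −0.0840 to 0.0982 (Dbp) and −0.165 to 0.0206 (Tef). In stimulated cells the PGE2 change ran from −0.131 to 0.0663 (Cry1), −0.00732 to 0.129 (Cry2), −0.214 to 0.141 (Nr1d1) and −0.0919 to 0.194 (Nr1d2), in unstimulated cells from −0.109 to 0.0473 (Cry1), and the bead difference of Per1 with PGE2 from −0.0776 to 0.00769. The cause was not tested.

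Counts of further clock genes, an alternative added after the data were seen, ran from 4 to 13 (6 as reported) in unstimulated and 0 to 8 (1 as reported) in stimulated cells. The 13, with the replicate block, included Bhlhe41, whose call is no support for a difference. In stimulated cells the count was 8 with the replicate block, 3 in 1 fit of all 16 samples, 2 by DESeq2 and with upper-quartile factors, and 0 with at least 10 counts in every sample and with limma, neither of which tested Hlf. The counts of 8, 3 and 2 under these settings each included Hlf. Without 1 sample each it ran from 0 to 2, and was 2 without stimulated PGE2 replicate 1. Upper-quartile factors moved the median of all genes to −0.128 for beads without PGE2.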
